A study of Mus musculus with 8 samples.

Results

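Axon guidance ligands and receptors were followed in bulk RNA sequencing of mouse PrL tissue. PrL is read here as the prelimbic cortex, an area of the medial prefrontal cortex. The members are the rows of the deposited table whose symbols name a class 3 to 7 semaphorin, a plexin, a neuropilin, an ephrin, an Eph receptor, a Slit, a Robo, a netrin or netrin-G, an Unc5 receptor or Dcc. They number 70 of 14765 genes: 20 semaphorins, 11 plexins and neuropilins, 8 ephrins, 14 Eph receptors, 3 Slits, 4 Robo receptors, 5 netrins and netrin-Gs, and 5 receptors of the Dcc and Unc5 kind. The 4 SNI libraries were compared with the 4 Sham libraries. SNI stands in pain research for spared nerve injury, a lesion of branches of the sciatic nerve that causes lasting neuropathic pain, and Sham names the control group. The labels give the same genotype, C57, and the same tissue, brain, for all 8 libraries. Age, sex, the time after surgery and whether each library came from its own mouse were not stated in the labels. The p-values therefore rest on the spread among libraries, some of which could be technical.

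Guidance molecules were found as cues that attract or repel growing axons. Semaphorins signal through plexins, with neuropilins as binding partners for most secreted class 3 members. Ephrins are membrane-bound ligands of the Eph receptor tyrosine kinases. Slits repel axons through Robo receptors, and netrins act through Dcc and the Unc5 receptors. In the adult cortex the same families are known for roles at synapses, in dendritic spines and in blood vessels.

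Each library held 14735602 to 19602487 counts. Levels are given as CPM, counts scaled to library size with the TMM correction for differences in library composition. Changes are log2 fold changes of SNI over Sham with their standard errors (SE). A gene passed when its edgeR adjusted p was under 0.05, with adjustment over all 13911 genes tested. Of the 70 members 68 were tested. Epha1 and Efna4 fell below the low-count filter, with 2 to 9 and 2 to 10 counts per library, and were not tested. They are counted only among the levels and in the check for single libraries that stood apart. In bulk tissue, fewer cells of a type and less RNA per cell cannot be told apart.

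Fewer transcripts of 6 guidance genes were found in SNI, and 0 members rose at the threshold. The 6 were the Robo receptors Robo3 and Robo2, the Eph receptors Epha10 and Epha3, and the semaphorins Sema3a and Sema7a. The falls ran from 2.50-fold for Robo3 to 1.28-fold for Robo2. Of all genes tested, 5.02% were called, 2.87% lower and 2.15% higher, and among the 68 members the lower calls came to 8.82%. The members were chosen with earlier results of these data known, so their share is a description and not a test. At an unadjusted p under 0.05, 18 members were lower and 7 higher, where 10.7% of all genes were lower and 10.3% higher. DESeq2 called 12 members lower and 3 higher, limma voom 7 and 2, and scaling by library totals 5 and 2. Over all 13911 genes DESeq2 called 654 lower and 511 higher (8.37% in all). Limma voom called 439 and 342 (5.61%), and library totals 276 and 446 (5.19%). Over the members the median change was -0.10 (log2) and over all genes 0.01, and 42 of the 68 members had a negative sign. Of all 13911 genes, 6652 had a negative sign. In 10 members the 4 SNI values all lay below the 4 Sham values and in 4 they all lay above. Over all genes these shares were 7.02% and 5.64%.

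Summed markers of upper-layer, excitatory and GABAergic neurons read lower in SNI, and most single markers of these lists did not pass. The summed level of 12 upper-layer neuron markers was 1004 to 1197 CPM in Sham and 812 to 894 CPM in SNI, with 3 of the 12 lower at the threshold. That of 12 excitatory neuron markers was 8818 to 9802 CPM in Sham and 6611 to 8503 CPM in SNI, with 4 of 12 lower. That of 20 GABAergic neuron markers was 2609 to 3149 CPM in Sham and 2279 to 2463 CPM in SNI, with 1 of 20 lower. None of these markers was at 0 in any library, and their lowest count was 69. The groups did not overlap in these 3 sums, but did in those of the other 8 marker lists. In those lists 2 of 16 deep-layer neuron, 2 of 18 microglia and 3 of 6 choroid plexus and ependymal markers were called higher. Of 10 oligodendrocyte precursor markers 1 was called lower. Sums follow the most abundant markers. A second value per library, the mean over a list of log2 levels centred on each marker's own mean, weighs markers alike. By it the GABAergic groups overlapped, at -0.104 to 0.393 in Sham and -0.176 to -0.026 in SNI. The choroid plexus and ependymal groups did not overlap, at -0.498 to -0.207 in Sham and 0.178 to 0.541 in SNI. The median log2 fold change was 0.24 over the deep-layer and 0.67 over the striatal neuron markers. The striatal sum was highest in SNI replicates 2 and 4, at 1600.0 and 1564 CPM, against 755 to 1098 CPM in the other libraries. With the striatal marker value per library as a covariate, 1 member was called, Robo3, and 53 genes in all. The log2 fold changes of the members in that fit were -1.23 for Robo3, -0.53 for Epha10, -0.64 for Sema3a, -0.48 for Sema7a, -0.80 for Epha3 and -0.31 for Robo2, near those without the covariate given with each gene, while the adjusted p of the 5 that lost the call was 0.0829 to 0.37. Without SNI replicates 2 and 3, the SNI libraries with the lowest excitatory sums, 3 members were called: Robo3, Sema3a and Epha3. Whether the share of neurons or of striatal tissue plays a part in the falls of the members was not tested beyond these values.

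**Figure D1:**
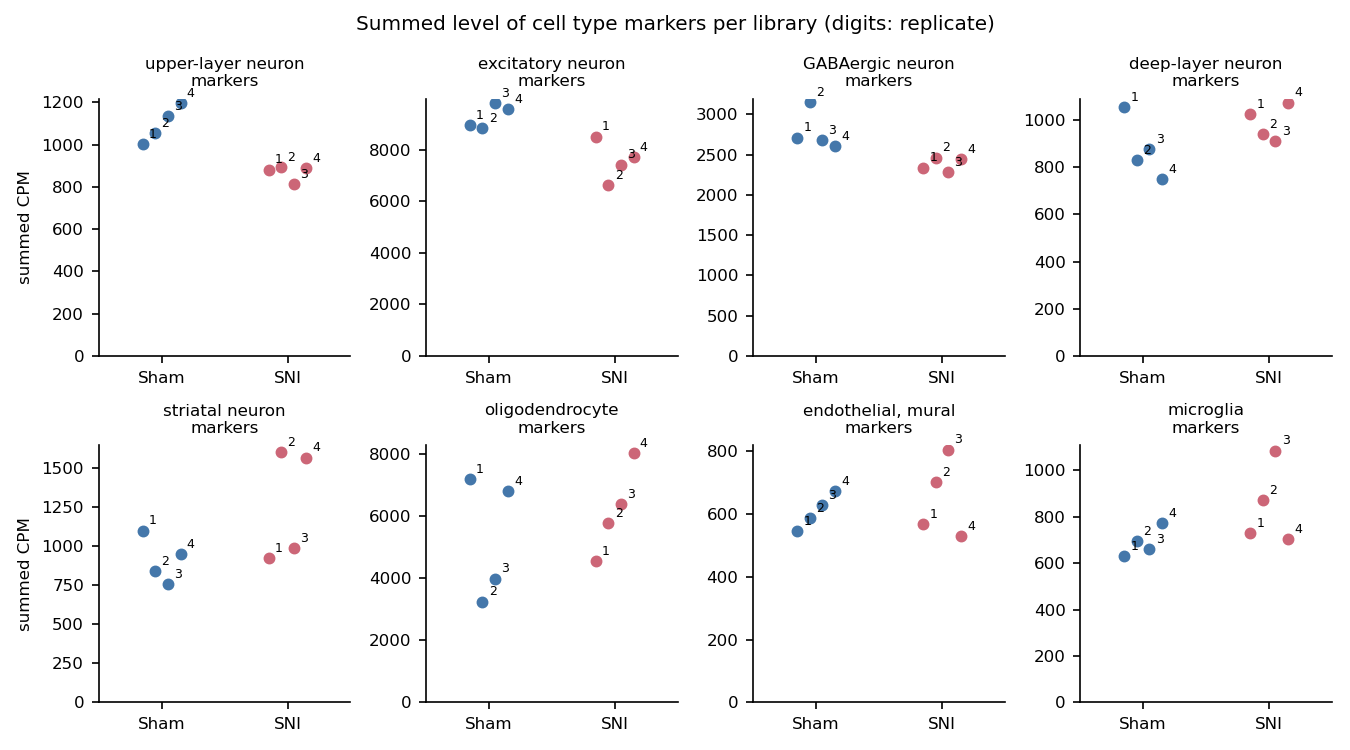
Summed level (CPM, vertical axes from 0) of marker genes of 8 cell types or layers in each Sham and SNI library, with 1 point per library and its replicate number as a digit. The sums of upper-layer, excitatory and GABAergic markers did not overlap between the groups, and striatal sums were highest in SNI replicates 2 and 4.

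The sequences just upstream of the start sites are shown for the 4 members of smallest p. Shared control of these genes was not tested. RefSeq (GRCm38.p6) gave a promoter window for 60 of the 70 members. The windows hold the 250 bases before the start, 5′ to 3′ on the gene's strand. They are chr9:37433176-37433425 on the minus strand for Robo3, chr4:124881535-124881784 on the plus strand for Epha10, chr5:13396534-13396783 on the plus strand for Sema3a and chr9:57939862-57940111 on the plus strand for Sema7a. Capitals mark matches, on either strand, to the GC box GGGCGG or the E-box CAGCTG. The AP-1 site TGANTCA, the CRE TGACGTCA and the TATA box TATAAA were searched too and had 0 matches in these 4 windows. Neighbouring matches can overlap.
Robo3: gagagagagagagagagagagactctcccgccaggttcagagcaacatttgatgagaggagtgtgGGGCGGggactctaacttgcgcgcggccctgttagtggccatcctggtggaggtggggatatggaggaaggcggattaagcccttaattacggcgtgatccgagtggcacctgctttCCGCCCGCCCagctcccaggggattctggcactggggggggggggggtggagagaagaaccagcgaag
Epha10: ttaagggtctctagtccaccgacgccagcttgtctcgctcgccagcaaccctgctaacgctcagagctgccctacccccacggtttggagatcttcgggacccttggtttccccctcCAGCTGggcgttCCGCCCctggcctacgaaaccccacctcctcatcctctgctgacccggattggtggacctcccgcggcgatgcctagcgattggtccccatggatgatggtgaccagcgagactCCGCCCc
Sema3a: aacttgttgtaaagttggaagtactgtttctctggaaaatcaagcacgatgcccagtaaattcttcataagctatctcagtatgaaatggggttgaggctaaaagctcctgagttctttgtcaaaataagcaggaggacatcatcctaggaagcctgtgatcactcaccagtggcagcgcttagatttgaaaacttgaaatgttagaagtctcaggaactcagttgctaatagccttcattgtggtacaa
Sema7a: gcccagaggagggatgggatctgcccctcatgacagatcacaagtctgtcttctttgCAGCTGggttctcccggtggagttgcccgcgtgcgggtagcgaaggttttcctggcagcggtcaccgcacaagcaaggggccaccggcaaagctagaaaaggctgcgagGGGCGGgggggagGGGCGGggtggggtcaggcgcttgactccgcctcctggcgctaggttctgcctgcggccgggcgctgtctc
The windows of Robo3, Epha10 and Sema7a had 61.2%, 63.6% and 66.4% G and C, with 3, 2 and 2 GC boxes. Of the windows of genes in the table, 56.3%, 64.9% and 74% had less than these. The window of Sema3a had 40.8% G and C, and only 3.15% of the windows of genes in the table had less. It held 0 GC boxes. The RefSeq starts of Sema3a, Epha10 and Robo3 lie inside the spans that GENCODE M21 gives these genes, and that of Sema7a at the edge of its span. Sema3a spans 13125414 to 13602565 on chromosome 5. The 60 members with a window had 76 windows in all, some genes having several starts. GC boxes were present in 69.7% of these 76 and in 54.9% of the 14694 windows of all genes in the table. The median G and C content also differed, at 64.2% in the members' windows and 59.2% in all windows. E-boxes were present in 15.8% of the members' windows and in 12.7% of all windows. These matches are letters in a window and say nothing of which factors bind.

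Of the 4 Robo receptors 2 fell and 0 rose, and Robo3 had the largest fold. The shares over all genes were 2.87% lower and 2.15% higher. Robo3 is known for letting commissural axons cross the midline, and in mammals it does not bind Slits with high affinity. Its level in Sham replicates 1 to 4 was 15.1, 13.0, 11.1 and 11.6 CPM, and in SNI replicates 1 to 4 it was 5.51, 4.11, 6.39 and 4.40 CPM. The groups lay far apart, with a gap between the lowest Sham and the highest SNI library wider than the range within either group. The log2 fold change was -1.32 ± 0.167 (SE), with an edgeR adjusted p of 0.000713, and its p ranked 13 among the 13911 genes. Robo3 passed in each of the 18 alternative settings, with log2 fold changes from -1.44 to -1.22. The raw counts were 175 to 222 in Sham and 73 to 96 in SNI. Robo3 (chromosome 9, 37415669 to 37433246, minus strand) ends 553 bases from the end of Robo4, which lies on the other strand. Robo4, a Robo of blood vessel endothelium, averaged 8.83 ± 0.584 CPM over the Sham libraries and 8.25 ± 2.78 CPM over the SNI libraries (SD, n = 4 per group), and its groups overlapped. Its log2 fold change was -0.10, with a 95% interval of -0.54 to 0.33.

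Robo2, a classical Slit receptor, had 94.0, 109.9, 111 and 114 CPM in the Sham libraries and 93.6, 90.05, 69.55 and 82.5 CPM in the SNI libraries. Sham replicate 1 and SNI replicate 1 nearly met, and the other libraries of the groups lay further apart. This gave a log2 fold change of -0.35 ± 0.0965 (SE, edgeR adjusted p = 0.0464). The call ended without Sham replicate 2, 3 or 4 or SNI replicate 3 or 4, with an adjusted p of up to 0.141. It also ended with upper-quartile scaling (0.0605), library totals (0.0773) and the replicate block (0.0711). Robo1, the other main Slit receptor, was at 33.1 to 42.1 CPM over all 8 libraries and had a log2 fold change of -0.05 (95% interval -0.26 to 0.15). Of the ligands, Slit2 had -0.43 ± 0.149 (SE) and did not pass (edgeR adjusted p = 0.118). Its Sham libraries spanned 33.4 to 52.4 CPM and its SNI libraries 26.0 to 37.9 CPM, so the groups overlapped. Slit1 and Slit3 had 0.02 and 0.03, with intervals of -0.27 to 0.32 and -0.24 to 0.29.

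**Figure D2:**
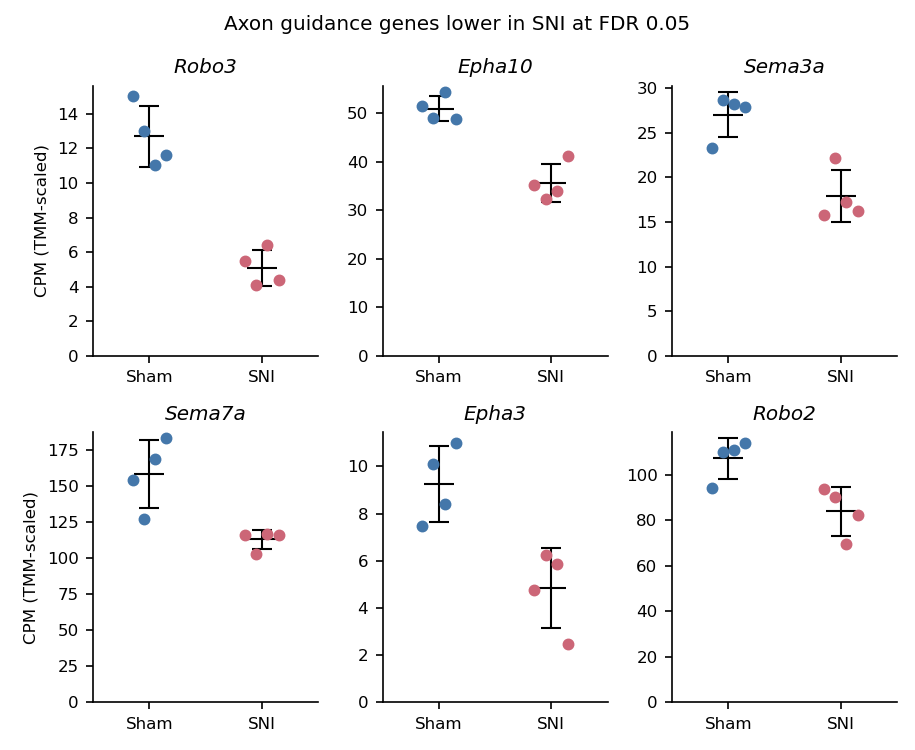
CPM (TMM-scaled, vertical axes from 0) of the 6 guidance genes that passed, in 4 Sham and 4 SNI libraries (points), with the mean and SD (bars). All SNI points lie below all Sham points in each panel, most widely in Robo3, and nearly touch in Robo2.

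Among the Eph receptors, 2 of 13 tested fell and 0 rose, with a median log2 fold change of -0.12. At an unadjusted p under 0.05, 5 Eph receptors were lower and 1 higher. The shares over all genes were 2.87% lower and 2.15% higher at the threshold, and 10.7% and 10.3% at that unadjusted p. Epha10, an Eph receptor without kinase activity, had 51.4, 49.1, 54.5 and 48.8 CPM in the Sham libraries and 35.3, 32.4, 33.9 and 41.3 CPM in the SNI libraries. Even the highest SNI library, replicate 4, stayed below the lowest Sham library, with a log2 fold change of -0.51 ± 0.0899 (SE, edgeR adjusted p = 0.00522). The call held whichever library was left out (adjusted p 0.00335 to 0.0255) and ended without SNI replicates 2 and 3 together (0.0547) and with the striatal covariate (0.0829, log2 fold change -0.53). Epha10 lies on chromosome 4 from 124880899 to 124917800, where a gene on the opposite strand, 1700125G02Rik, overlaps it.

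Epha3, a receptor of A-class ephrins, had 7.46, 10.1, 8.40 and 11.01 CPM in the Sham libraries and 4.77, 6.24, 5.86 and 2.47 CPM in the SNI libraries. SNI replicate 4 was the lowest, and the groups did not overlap. Its log2 fold change was -0.93 ± 0.234 (SE, edgeR adjusted p = 0.0345). This call ended without Sham replicate 2, 3 or 4 or SNI replicate 1 or 3, with an adjusted p of up to 0.0789, and with the replicate block (0.0537). Epha3 had few reads, with 41 to 192 counts per library.

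Ephb6, the second Eph receptor without kinase activity, had the highest level per exonic length of all members and also read lower in SNI. Its Sham libraries had 253, 221, 235 and 218 CPM and its SNI libraries 214, 146, 182 and 186 CPM. The groups did not overlap, but the log2 fold change of -0.35 ± 0.103 (SE) missed the threshold (edgeR adjusted p = 0.0605). It passed with DESeq2 (adjusted p = 0.0202), with the replicate block (0.0455) and without SNI replicate 1 (0.0201). Epha4, a receptor of both ephrin classes known for dendritic spine retraction, had -0.32 and an edgeR adjusted p of 0.0724. It passed with DESeq2 and without Sham replicate 1. Its groups overlapped, at 150 to 199 CPM in Sham and 134 to 153 CPM in SNI. Ephb3 had -0.36 (adjusted p = 0.126), while Epha5, Epha7 and Ephb1 had -0.05, -0.03 and -0.06. Epha8 had the highest positive value, 0.49 ± 0.216 (SE), with an adjusted p of 0.205. Ephb2 and Epha6 had -0.18 and -0.12. Epha2 and Ephb4 had 0.35 and 0.15, with intervals that span 0.

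Of the 7 ephrins tested, 0 passed in either direction (1 lower and 2 higher at an unadjusted p under 0.05, and 1 lower and 1 higher with DESeq2). Efna5, an A-class ephrin of cortical and thalamic maps, had 16.6, 19.3, 17.0 and 19.4 CPM in Sham and 15.2, 13.4, 14.6 and 12.5 CPM in SNI. The groups did not overlap (log2 fold change -0.37 ± 0.111 SE, edgeR adjusted p = 0.0645). Efna5 passed with DESeq2 (0.0339) and with limma voom (0.0429). Efna1, known in blood vessels and as a ligand of Epha2, had 3.60, 3.85, 2.91 and 4.59 CPM in Sham and 5.33, 6.09, 5.92 and 5.00 CPM in SNI. Here every SNI value was the higher (log2 fold change 0.58 ± 0.189 SE, edgeR adjusted p = 0.0903). The summed level of 16 endothelial and mural markers overlapped between the groups, at 547 to 672 CPM in Sham and 530 to 806 CPM in SNI.

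Efnb3, a B-class ephrin of neurons and myelin, had 96.3, 80.1, 69.2 and 72.0 CPM in Sham and 106, 79.7, 109 and 129 CPM in SNI. SNI replicate 2 lay within the Sham range and the other SNI libraries above it. At 0.42 ± 0.138 (SE) on the log2 scale it did not pass (edgeR adjusted p = 0.108). It did with DESeq2 (0.0399), with limma voom (0.0237) and without SNI replicate 2 (0.0248). Oligodendrocyte markers, 14 genes, summed to 3242 to 7176 CPM in Sham and 4542 to 8025 CPM in SNI, with 0 of 14 called. Efnb1 and Efnb2 had 0.01 and -0.02, with intervals of -0.26 to 0.28 and -0.24 to 0.20. Efna3 and Efna2 had -0.15 and -0.23. Efna1, Efna3 and Efna4 are neighbours on chromosome 3, with 32.8 and 10.4 kb between them.

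Among the 20 semaphorins 2 fell and 0 rose, and the median log2 fold change was -0.12. At an unadjusted p under 0.05, 5 semaphorins were lower and 2 higher. The shares over all genes were 2.87% lower and 2.15% higher at the threshold, and 10.7% and 10.3% at that unadjusted p. Sema7a, a lipid-anchored semaphorin that binds integrins and plexin C1, is abundant in this tissue. Its Sham libraries had 155, 128, 169 and 183 CPM and its SNI libraries 116, 103, 117 and 116 CPM. The Sham libraries were spread widely and all lay above the SNI libraries (log2 fold change -0.49 ± 0.100 SE, edgeR adjusted p = 0.0132). The highest adjusted p on leaving out a library was 0.0498, without Sham replicate 3, and the call ended without SNI replicates 2 and 3 together (0.118). Plxnc1, its plexin, was at 58.9 to 78.8 CPM over all libraries and had a log2 fold change of 0.08 (95% interval -0.13 to 0.28).

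Sema3a is a secreted repellent of cortical axons that also binds perineuronal nets. It had 23.3, 28.7, 28.2 and 27.9 CPM in Sham and 15.8, 22.1, 17.2 and 16.3 CPM in SNI. Sham replicate 1 and SNI replicate 2 came close, and the other libraries of the groups were further apart. Its log2 fold change was -0.59 ± 0.120 (SE, edgeR adjusted p = 0.0118), and the call held whichever library was left out (0.00252 to 0.0472). Of its receptors, Nrp1, which binds Sema3a, had 0.15 (95% interval -0.09 to 0.39). The plexins that signal with Nrp1 had -0.18 for Plxna1, -0.12 for Plxna2, -0.24 for Plxna4 and 0.19 for Plxna3. Plxna4 was the nearest to passing, at 76.1 to 84.2 CPM in Sham and 64.0 to 71.2 CPM in SNI with no overlap (SE 0.0730, edgeR adjusted p = 0.0735).

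Sema3a lies on chromosome 5 between Sema3d and Sema3e, 536 and 423 kb away, with Sema3c further along the chromosome. Their log2 fold changes were 0.30 for Sema3d, -0.12 for Sema3e and -0.19 for Sema3c, and none passed. Sema3f, a secreted ligand of Nrp2 that limits dendritic spines, read higher in SNI in all 4 libraries, at 6.17 to 7.06 CPM in Sham and 7.38 to 10.8 CPM in SNI. Its log2 fold change of 0.50 ± 0.151 (SE) did not pass (edgeR adjusted p = 0.0703). It passed with DESeq2 (0.0448), with limma voom (0.0393), with library totals alone (0.0481) and without SNI replicate 2 (0.0407). Nrp2 had 0.18 (95% interval -0.04 to 0.39). Sema3b and Sema3g, secreted like Sema3f, had few reads and gave -0.18 and -0.20 with intervals that span 0.

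Class 6 semaphorins, membrane proteins that bind A-class plexins, gave 3 negative values and 1 positive. Sema6b, the semaphorin of highest level per exonic length, had 195, 185, 186 and 174 CPM in Sham and 178, 111, 142 and 157 CPM in SNI. SNI replicate 1 overlapped the Sham range and replicate 2 was the lowest (log2 fold change -0.33 ± 0.115 SE, edgeR adjusted p = 0.108). Sema6a had -0.29 (adjusted p = 0.081) and Sema6c -0.35 (0.173). Sema6a passed with DESeq2 (0.0481), and Sema6b without SNI replicate 1 (0.0279). The groups of Sema6a did not overlap, at 33.4 to 40.8 CPM in Sham and 28.3 to 32.8 CPM in SNI. Sema6d had 0.21 (0.19), and its SNI values, 54.0 to 64.8 CPM, all lay above its Sham values, 43.6 to 52.2 CPM. The 6 class 4 semaphorins, ligands mostly of B-class plexins, had log2 fold changes from -0.20 to 0.17. The 2 of class 5 had -0.06 and 0.17.

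**Figure D3:**
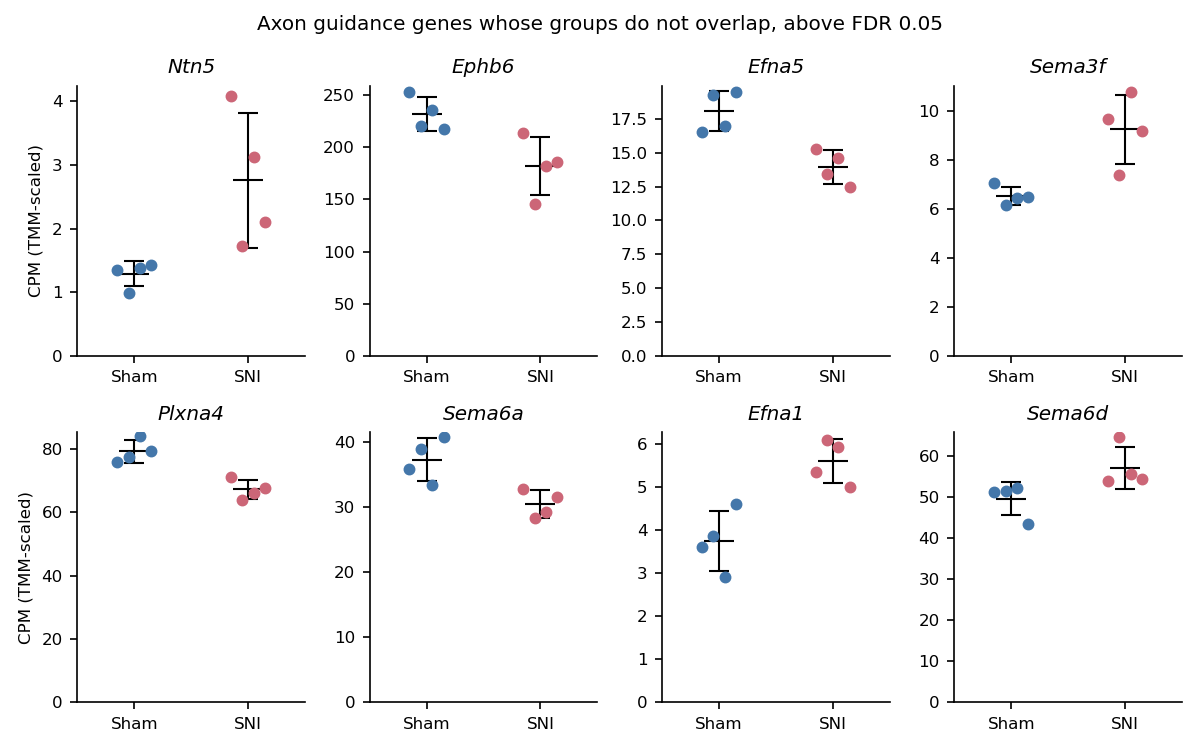
CPM (TMM-scaled, vertical axes from 0) of the 8 guidance genes whose Sham and SNI values did not overlap but which missed the threshold, with points for libraries and bars for the mean and SD. Ntn5, Sema3f, Efna1 and Sema6d are higher in SNI, and Ephb6, Efna5, Plxna4 and Sema6a lower.

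Of the 11 plexins and neuropilins 0 passed (2 lower and 1 higher at an unadjusted p under 0.05, and DESeq2 called Plxna4 lower). Their median log2 fold change was 0.14. The 3 B-class plexins were all positive, from 0.14 for Plxnb1 and 0.19 for Plxnb2 to 0.38 for Plxnb3 (edgeR adjusted p = 0.189). Plxnb3, known in oligodendrocytes, had 17.0, 10.4, 11.25 and 17.1 CPM in Sham and 16.7, 16.25, 21.3 and 18.6 CPM in SNI. Its groups overlapped. The summed oligodendrocyte markers were 7176, 3242, 3977 and 6791 CPM in the same Sham libraries and 4542, 5767, 6371 and 8025 CPM in SNI. Whether the share of oligodendrocytes plays a part in the value of Plxnb3 was not tested. Plxnd1, a receptor of Sema3e, had -0.28 (adjusted p = 0.142). Plxna1 had the highest level per exonic length of this family, and its SNI replicate 2 stood low at 53.3 CPM against 81.05 to 97.8 CPM in the other 7 libraries.

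Among the netrins and netrin-Gs the values pointed both ways, and 0 of 5 passed (2 lower and 1 higher at an unadjusted p under 0.05, and 1 lower and 1 higher with DESeq2). Ntn5, a netrin relative, had 1.36, 0.996, 1.39 and 1.43 CPM in Sham and 4.09, 1.73, 3.13 and 2.11 CPM in SNI. All SNI libraries were higher and spread more widely than the Sham libraries. Its log2 fold change of 1.08 ± 0.311 (SE) was the highest among the members tested and missed the threshold (edgeR adjusted p = 0.0563). It passed with DESeq2 (0.0276), with library totals alone (0.0465) and without SNI replicate 2 (0.0404). With 15 to 66 counts per library its precision is low, and Sec1 overlaps it on the opposite strand (log2 fold change 0.62, adjusted p = 0.529), so the source of its reads is uncertain.

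Ntng2, a lipid-anchored netrin-G found on axons, had 46.9, 40.1, 36.7 and 31.0 CPM in Sham and 32.3, 26.4, 26.6 and 30.2 CPM in SNI. Sham replicate 4 lay below SNI replicate 1, and the other Sham libraries lay above all SNI libraries. Its log2 fold change of -0.42 ± 0.118 (SE) lay just above the threshold (edgeR adjusted p = 0.0516), and 7 of the 18 alternative settings called it. Ntng1, the other netrin-G, had -0.32 (adjusted p = 0.223). Ntn1, the founding netrin, spanned 7.503 to 11.8 CPM over all libraries with a log2 fold change of 0.08 (95% interval -0.25 to 0.41). Ntn4, a laminin-binding netrin, had -0.30 with groups that overlapped.

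Of the netrin receptors 0 of 5 passed, 0 had an unadjusted p under 0.05, and DESeq2 and limma voom called 0. Unc5a, the most abundant per exonic length, had 88.7 to 109 CPM in Sham and 79.3 to 128 CPM in SNI (log2 fold change 0.15, 95% interval -0.12 to 0.43). Unc5c and Unc5d had -0.18 and -0.20 and Unc5b 0.07. Dcc, the attractive netrin receptor, was scarce at 2.58 to 5.05 CPM and had a log2 fold change near 0 with an interval of -0.50 to 0.49.

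**Figure D4:**
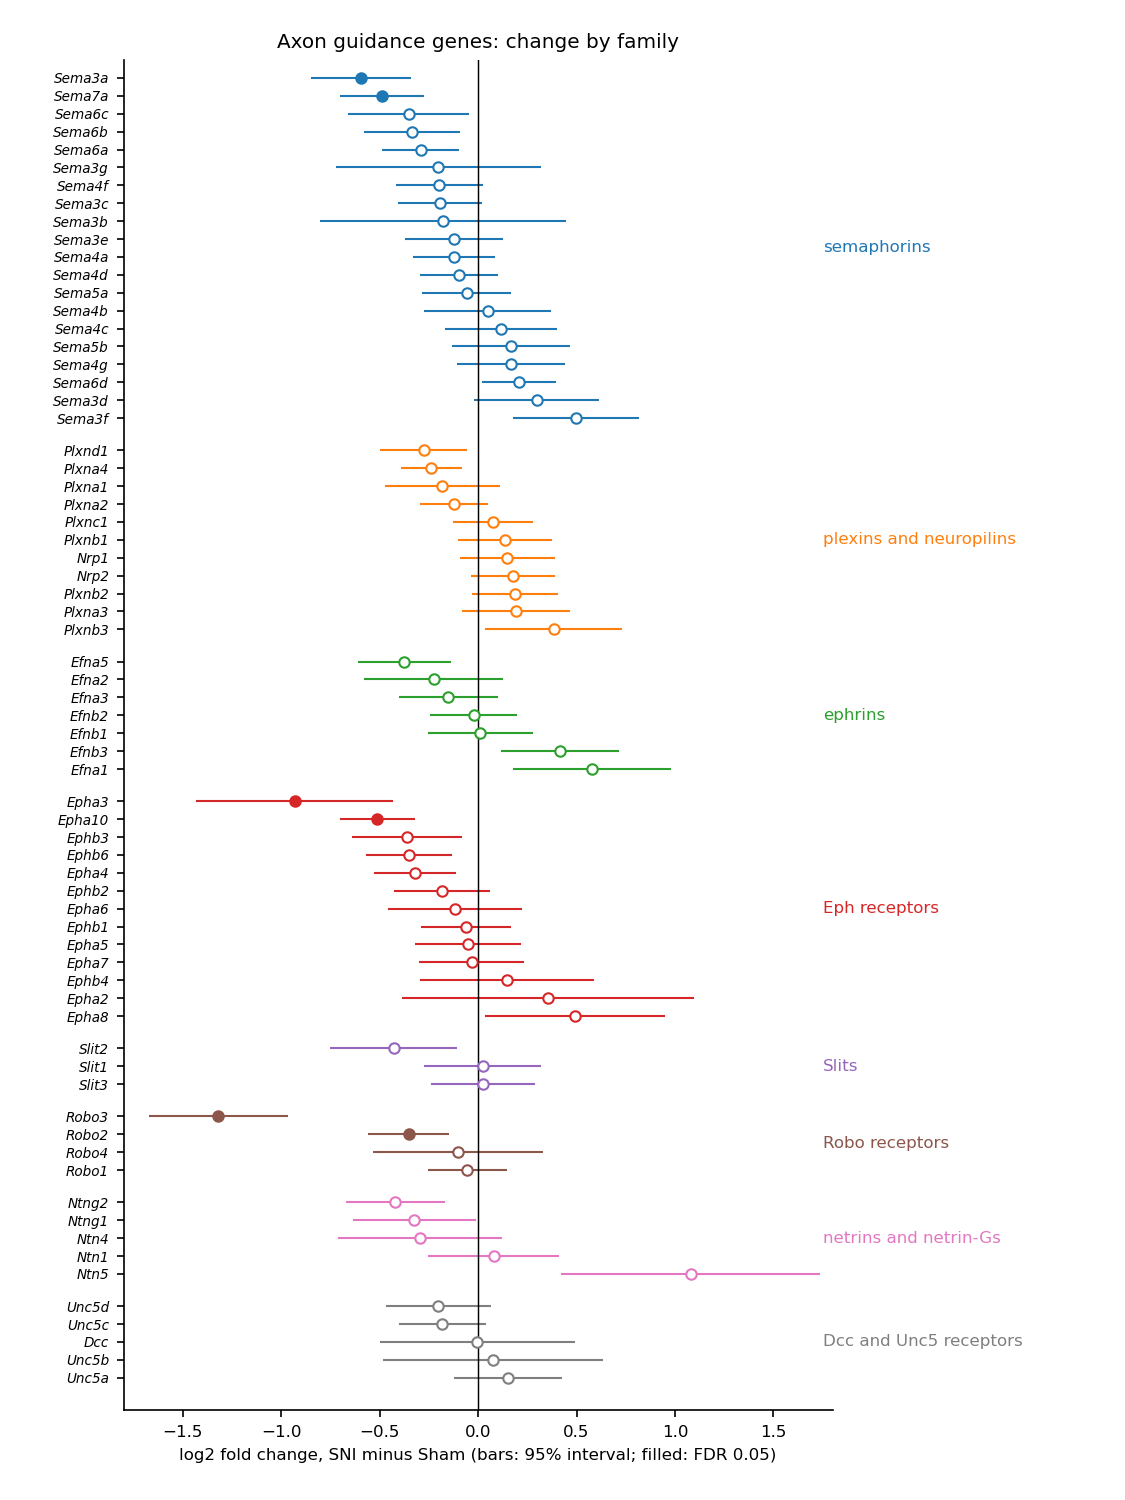
Log2 fold change (SNI minus Sham, horizontal axis) of the 68 tested guidance genes by family, with bars for the 95% interval and filled points for the 6 that passed. Filled points lie at -0.35 to -1.32, and Ntn5 has the highest positive value at 1.08.

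Levels of the members differed widely. Per kilobase of exon, Ephb6 was the highest at 54.8 CPM per kb (SD 9.03 over the 8 libraries), then Sema6b at 41.8 (SD 7.08) and Sema7a at 41.2 (SD 8.84). Sema6b and Sema7a differed by less than their spread. Next came Efnb3 at 29.1, Unc5a at 25.3, Efna3 at 22.6 and Epha4 at 19.8 CPM per kb. Within this run of 4, each lay within 1 SD (6.59 for Efnb3, 3.99 for Unc5a, 3.25 for Efna3) of the next. Of the 70 members 9 lay above 10 CPM per kb, 54 from 1 to 10 and 7 below 1. The genes that passed came from across this range, from Epha3 at 0.810 and Robo3 at 1.30 to Robo2 at 5.63, Epha10 at 6.01 and Sema7a at 41.2 CPM per kb.

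**Figure D5:**
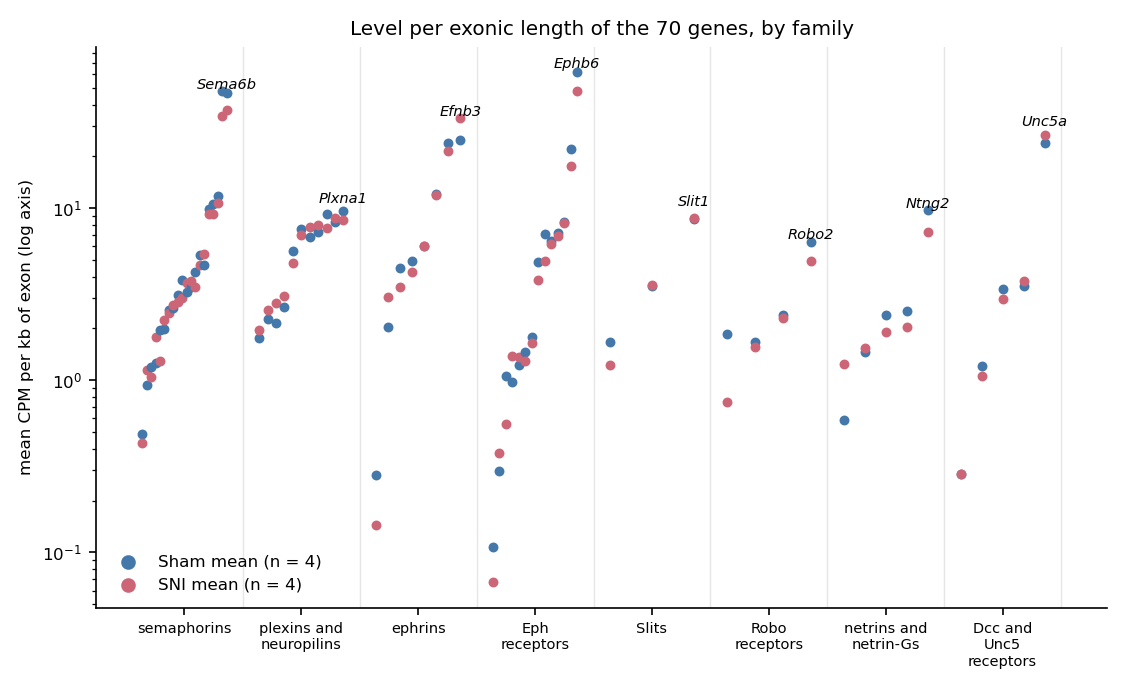
Mean CPM per kb of exon (log axis) of the 70 guidance genes by family, with a point for the Sham mean and one for the SNI mean (n = 4 libraries each) and the name of the highest gene of each family. Ephb6 is the highest of all at 54.8 CPM per kb over both groups.

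Other genes of these pathways were taken from a pair of lists. Of 27 co-receptors and adhesion partners 3 fell and 0 rose, with 11 lower and 0 higher at an unadjusted p under 0.05. Over all genes 2.87% fell and 2.15% rose, and at that unadjusted p 10.7% were lower and 10.3% higher. Lrrc4c, which encodes NGL-1, the postsynaptic partner of netrin-G1, averaged 161 ± 13.5 CPM over the Sham and 117 ± 9.84 CPM over the SNI libraries (SD, n = 4 per group), with an edgeR adjusted p of 0.0081 for a log2 fold change of -0.46. Adgrl1, a latrophilin, fell by 0.38 on the log2 scale, and Dscam, which can bind netrin, by 0.39 (edgeR adjusted p = 0.0333 and 0.031). Lrrc4, the partner of netrin-G2, had -0.18 and did not pass.

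Of 66 signal transducers 4 fell and 0 rose, with 10 lower and 1 higher at an unadjusted p under 0.05. Mical2, an actin-oxidising enzyme related to the plexin effector Mical1, averaged 323.5 ± 34.03 CPM over the Sham and 204 ± 21.9 CPM over the SNI libraries (SD, n = 4 per group), with an edgeR adjusted p of 0.00202 for a log2 fold change of -0.67. Fyn, a kinase downstream of several guidance receptors, fell by 0.32 on the log2 scale. Rnd1, a GTPase that binds plexins, and Crmp1, a mediator of Sema3a signalling, fell by 0.42 and 0.39. The lower calls in these lists came to 7.53% of 93 genes, against 2.87% of all genes. The lists were chosen with earlier results of these data known, so this share is a description and not a test. The count of 7 fell to 3, 4, 2, 4 and 2 without Sham replicates 1, 2 and 3 and SNI replicates 2 and 3, and to 0 with the striatal covariate. In that fit Lrrc4c had a log2 fold change of -0.49 (edgeR adjusted p = 0.0861) and Mical2 -0.52 (0.0829). Lrrc4c and Mical2 passed whichever library was left out.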

How the data were processed

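PrL tissue was profiled by poly(A) RNA sequencing in 4 Sham and 4 SNI libraries. The values are raw read counts per gene symbol as deposited, made by the authors with fastp, HISAT2 and StringTie on GRCm38 per the submitters' processing notes. The libraries keep strand by dUTP per the labels' protocols. Use of strand in counting, the annotation and any gene filter are not given in the sources used here. No count in the table lies under 1. Of the 70 members, 43 overlap another GENCODE M21 gene, and 4 overlap a gene of the table (Ephb4, Epha1, Ntn5 and Unc5a), so their reads are uncertain.

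edgeR 4.0.16 (R 4.3.3) was run on the counts: filterByExpr, TMM, robust quasi-likelihood F-test, two-sided, group as the only term, Benjamini-Hochberg adjustment over 13911 genes. SE is the size of the log2 fold change over the square root of F, and 95% intervals use the t quantile at edgeR's total degrees of freedom. The edgeR fit was tested on counts simulated with edgeR's own dispersion estimates. The simulated libraries did not differ in cell composition, so that test says nothing of such differences. The members and lists were chosen with earlier results of these data known. Named by rule were members that passed, the smallest p and highest level per kb of each of 8 families, non-overlapping members with an adjusted p of at most 0.2, partners of those that passed, and log2 fold changes of at least 0.5. Other members were named to complete their families. Alternatives were RLE, upper-quartile and no scaling, no filter, 1 CPM in 4 libraries, DESeq2 1.42.0, limma 3.58.1 voom with quality weights, a replicate block, a striatal marker covariate and each library left out. Leaving out SNI replicates 2 and 3 was added after seeing the data. Sequences are from RefSeq, exonic lengths and coordinates from GENCODE M21.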

Additional observations from a re-analysis of the deposited data

Results flagged for a closer look

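In each group of 4 libraries, the highest or lowest value was compared with its nearest neighbour, relative to the range of the group. Of 140 such groups (70 genes in 2 groups) 7 held a library that stood apart, and chance gives about 1 in 20. Sema7a was low in SNI replicate 2, at 103 CPM against 116 to 117 CPM in the other SNI libraries. Sema3a was low in Sham replicate 1, at 23.3 CPM against 27.9 to 28.7 CPM. Sema6d was low in Sham replicate 4, at 43.6 CPM against 51.2 to 52.2 CPM, and high in SNI replicate 2, at 64.8 CPM against 54.0 to 55.7 CPM. Sema3d was high in SNI replicate 1, at 11.7 CPM against 9.16 to 9.52 CPM. Unc5d was low in Sham replicate 1, at 25.9 CPM against 32.9 to 34.0 CPM. Epha1 was low in Sham replicate 2, at 0.133 CPM against 0.505 to 0.543 CPM, which rests on few reads.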

How the results depend on the processing

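All 6 members that passed kept a negative log2 fold change in each of the 18 alternatives. Robo3 passed in all 18, Sema3a in 17, Epha10 and Sema7a in 16, Epha3 in 11 and Robo2 in 8. The 6 lower members became 12 with DESeq2, 1 with the striatal covariate and 3 without SNI replicates 2 and 3, and 4 to 8 with a library left out. The 0 higher members became 3 with DESeq2, 2 with limma voom, 2 with library totals alone and 0 to 3 with a library left out (3 without SNI replicate 2: Efnb3, Ntn5 and Sema3f). Over all genes, 399 lower and 299 higher became 654 and 511 with DESeq2, 36 and 17 with the striatal covariate, and 128 and 50 without SNI replicates 2 and 3. They ran from 168 to 453 and from 90 to 405 with a library left out, and were 276 and 446 with library totals alone. The 7 lower pathway genes became 12 with DESeq2, 0 with the striatal covariate, 2 without SNI replicates 2 and 3 and 2 to 9 with a library left out. The 0 higher ones became 0 to 1 with a library left out. The causes of these changes were not tested, other than that fewer samples enter a fit with libraries left out. The median log2 fold change of all genes was 0.01 with TMM and 0.06 with library totals.

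Replicate numbers are shared between the groups, but same-numbered libraries did not deviate together (correlations over genes of -0.148 to -0.006), and 0 of 4 Sham libraries correlated best with their own number. The replicate block kept 6 lower and 0 higher members, 4 of them from the 6: Ephb6 and Ntng2 passed in place of Epha3 and Robo2. It gave 306 lower and 212 higher genes in all, and 5 lower pathway genes.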
